A study of Rattus norvegicus with 47 samples.

Results

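Dbp, Per2 and Per3 are 3 genes of the circadian clock, and they were followed here in rat testis after a single dose of methoxyacetic acid (MAA), the metabolite through which the solvent ethylene glycol monomethyl ether damages the testis. Every probe that carries 1 of these gene symbols was taken, which gave 4 probes of 20500 tested and 3 genes of 9645. Dbp and Per2 have 1 probe each, and Per3 has 2. The animals were male Sprague-Dawley rats of 90 days. They received either 650 mg/kg MAA or saline intraperitoneally and were killed 4, 8, 12 or 24 h later. RNA from a portion of each animal's right testis was hybridised on 1 Agilent array together with a purchased universal rat RNA, which served as common reference. There were 6 animals in each of the 8 groups except the saline group of 4 h, which had 5, so that 24 treated and 23 saline animals on 47 arrays were compared. The labels give the hours after injection but no hour of day, so the 4 saline groups stand at unknown hours of the light cycle.

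In the clock of mammalian cells, the activators CLOCK and BMAL1 bind E-boxes and switch on the Per and Cry genes, whose proteins return to block these activators. DBP is a transcription factor that is itself an E-box target and binds D-boxes, including those of Per genes, so it acts as an output and as a second arm of the loop. Transcripts of Dbp, Per2 and Per3 swing widely over the day in liver, whereas in rodent testis the daily cycling of clock transcripts is reported to be weak or absent.

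Because the members are tied together by these elements, bases before the annotated 5′ end are shown for the gene of the D-box factor and for a gene that carries a D-box. They are taken from RefSeq on GRCr8, written 5′ to 3′ on the strand of the gene, and capitals mark a D-box (TTATGTAA) or a CCAAT box, on either strand.
Per2, chr9:99497070-99497243, minus strand: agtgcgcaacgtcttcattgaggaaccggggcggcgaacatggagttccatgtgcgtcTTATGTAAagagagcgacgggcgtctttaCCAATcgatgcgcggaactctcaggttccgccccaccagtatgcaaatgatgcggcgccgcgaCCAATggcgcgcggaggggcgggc
Dbp, chr1:105312006-105312205, plus strand: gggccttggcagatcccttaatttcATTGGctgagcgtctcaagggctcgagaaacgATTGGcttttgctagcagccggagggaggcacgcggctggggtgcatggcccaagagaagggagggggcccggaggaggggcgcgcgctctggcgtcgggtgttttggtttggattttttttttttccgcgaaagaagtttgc
Counted from the first base of the gene as position 0, the D-box of Per2 begins at position -116. An E-prime box (CACGTT) begins at position 14, within the annotated gene and beyond the bases shown. Dbp holds 2 CCAAT boxes on the reverse strand, which read ATTGG here. In windows of 300 bases, from 250 before to 50 after the start site that the RefSeq table uses for a gene, TTATGTAA was present in 0.893% of 33469 rat promoters, CACGTT in 4.83% and CCAAT in 37.5%. The E-box CACGTG, present in 6.42% of these windows, and the cAMP response element TGACGTCA, present in 1.83%, occurred in none of the windows of the 3 genes. That start site lies 76 bases inside the gene of Per2 and 443 bases inside that of Per3, so that the Per3 window lies wholly within the gene and the bases before its 5′ end were not searched. A match is a description of the letters, and none of these sites was measured.

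The values below are M, the log2 ratio of testis over reference on an array after loess normalisation of the raw intensities, and a difference between groups is a difference of M. The labels name Cy5 as the testis dye, but the file columns go against them. The log2 ratio of the Cy3 over the Cy5 column was taken relative to its median over all probes of the array. Across 11 germ cell markers the median of this centred ratio was 0.80. The median of these markers was above 0 on 47 of 47 arrays. Testis was therefore read from the column headed Cy3, and every sign here is the opposite of what the dye labels would give. Over the arrays the median testis intensity lay between 431 and 1749 units, and 43.5% to 97.2% of the probes stood above the background limit. In the series table of log2 ratios 39 of 47 columns equal the ratio of an array with another name. Which of the names are right is not settled by the files, so every group value here rests on the names of the single array files. Under the names that the series table gives, 0 probes of the whole array were called at each of the 4 times (limma). On the array of MAA 12 h animal 27 the Cy5 column equals that of MAA 8 h animal 15. Which array the column belongs to is not settled by the files, so the 8 h values are in question as well. The 12 h differences described below are also given without animal 27. The 8 h differences include animal 15, and no single value without it is given.

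The Dbp probe (Gene ID 24309, transcript NM_012543, gene at chr1:105312256-105317205) stood above background on 47 of 47 arrays. Its raw testis intensity ran from 542 to 2822 units with a median of 1414. Of the Per3 probes (Gene ID 78962, gene at chr5:166740914-166778243), probe 405, listed under the expressed sequence tag CB547475, was above background on 47 of 47 arrays, with 841 to 4167 units and a median of 1656.5. The signals of these probes were thus above background in every animal. For Per3 this holds for probe 405 and its expressed sequence tag. It does not hold for the Per3 probe listed under the transcript NM_023978, described next.

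Per2 and the other Per3 probe lay at the edge of detection. The Per2 probe (Gene ID 63840, transcript NM_031678, gene at chr9:99454828-99497069) was above background on 12 of 47 arrays, and its median raw testis intensity was 603.5 units. These 12 arrays were 9 of 24 from treated animals and 3 of 23 from saline animals. No saline array of 8 h or of 24 h was among them, that is 0 of 12. Probe 11864 of Per3, listed under the transcript NM_023978, was above background on 3 of 47 arrays, namely 1 each in saline 4 h, saline 12 h and MAA 4 h.

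**Figure D1:**
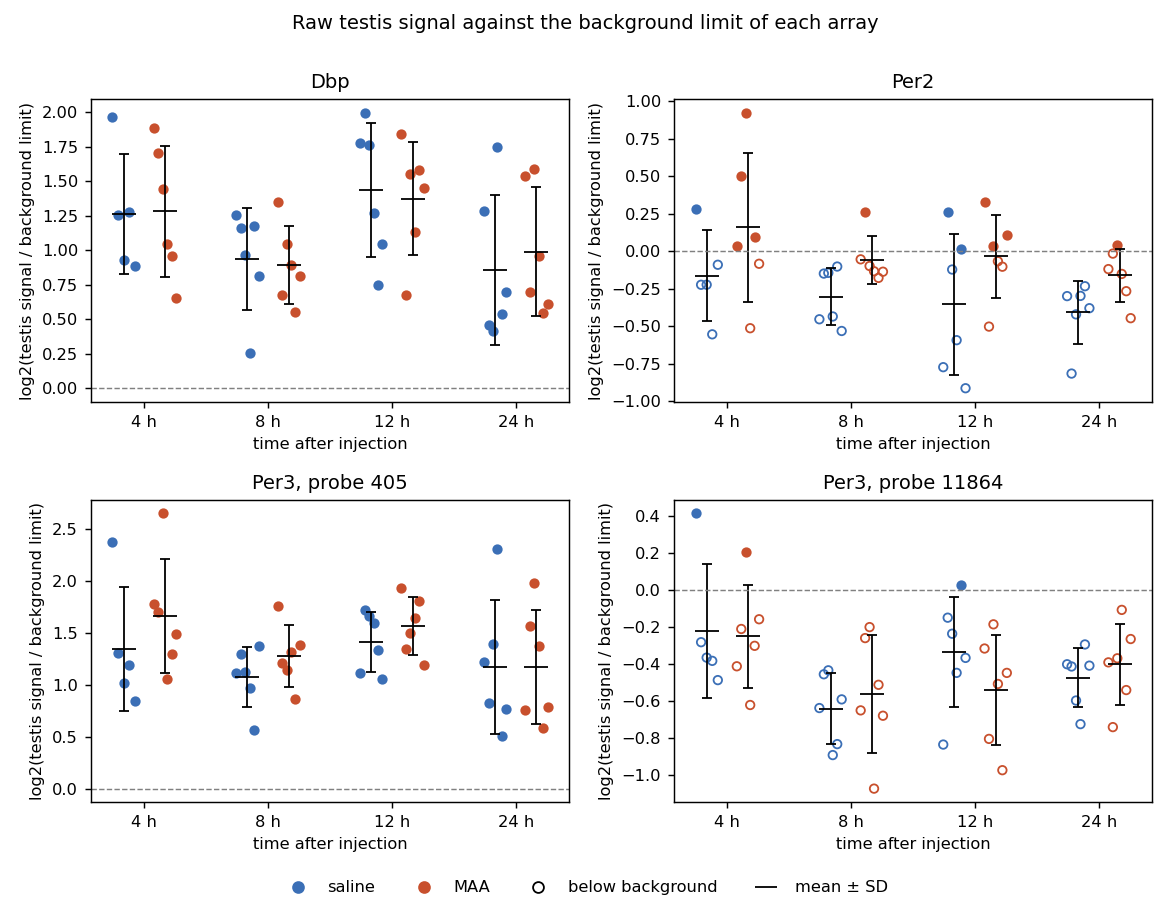
Raw testis intensity of each array over that array's background limit, on a log2 scale, by time after injection in hours for saline (blue) and MAA (red), with open circles below the limit, a dashed line at the limit, and bars at the mean ± SD. The medians of Dbp are 1.16 (saline) and 1.05 (MAA) above the limit, those of Per3 probe 405 are 1.19 and 1.37, and those of Per2 lie under it at -0.30 and -0.07.

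On the log2 scale the Per2 signal had a median of -0.30 against the limit in saline animals and -0.07 in treated animals. Its range was -0.91 to 0.28 in saline and -0.51 to 0.92 in treated animals, so the ranges overlapped widely. Probe 11864 had medians of -0.41 in saline and -0.40 in treated animals. Because a level under the limit is only a bound, no difference is given for Per2 at 8 and 24 h or for probe 11864 at 8, 12 and 24 h, where at least 1 group had no array above it.

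The levels of Dbp in the saline groups were close together. The 5 saline animals of 4 h had M of -2.20, -1.66, -1.66, -1.43 and -1.30, with a mean of -1.65 ± 0.34 (SD, n = 5). Means were -1.65 ± 0.21 at 8 h, -1.73 ± 0.21 at 12 h and -1.79 ± 0.39 at 24 h (SD, n = 6 each). From highest to lowest the order was 8, 4, 12 and 24 h, and all neighbours in it differed by less than their SD.

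A limma F test between the saline groups, with the hybridisation date in the fit, gave an adjusted p of 0.836 for Dbp. In that test 0 of 4 member probes were called, against 0.00488% of all probes, and 0 of 4 had an unadjusted p under 0.05, against 7.32%. The largest date-adjusted saline difference of Dbp was -0.39 between 24 and 8 h, with a 95% interval of -0.79 to 0.02 (limma, adjusted p = 0.877). In the testis channel alone that difference was 0.06, with the opposite sign, and without saline 8 h animal 18 it was -0.25. Saline animals of several times shared a date on 2 of 12 dates. On a date with all 4 times, single animals had M of -2.20 at 4 h, -1.37 at 8 h, -1.70 at 12 h and -1.88 at 24 h. On the date with 8, 12 and 24 h they had -1.99, -2.09 and -2.19. Both dates ran from higher to lower M between 8 and 24 h, by unequal amounts and with 1 animal a time. On the date with all 4 times the 8 h animal was animal 18, whose raw Dbp signals were the lowest of all arrays in both channels (542 and 2165 units). In the normalised testis channel (log2) that date ran from 10.17 at 8 h to 10.47 at 24 h, the other way. The other date ran from 10.54 to 10.48.

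Per2 levels in saline were low at every time. The 5 animals of 4 h had M of -0.89, -0.88, -0.67, -0.44 and -0.17, with a mean of -0.61 ± 0.31 (SD, n = 5). Means were -0.54 ± 0.27 at 8 h, -0.83 ± 0.47 at 12 h and -0.65 ± 0.26 at 24 h (SD, n = 6 each), but at 8 and 24 h they come from spots under the background limit. The order from highest to lowest was 8, 4, 24 and 12 h, and each neighbour lay within the SD of the next. The F test between saline groups gave an adjusted p of 0.885 (limma).

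Probe 405 of Per3 had the narrowest spread of the 4 probes, with an SD within groups of 0.17 against 0.28 for Dbp and 0.29 for Per2. In saline at 4 h the animals had M of -0.26, -0.19, -0.13, 0.01 and 0.07, with a mean of -0.10 ± 0.14 (SD, n = 5). The means at 8, 12 and 24 h were -0.09 ± 0.16, 0.11 ± 0.22 and 0.09 ± 0.12 (SD, n = 6 each). The plain means of 12 and 24 h stood above those of 4 and 8 h by about the SD of an animal, and the groups overlapped. With the date in the fit, 24 h differed from 4 h by 0.01 and from 8 h by 0.06. The F test gave an adjusted p of 0.952 (limma), and the largest saline difference, 12 h against 8 h, was 0.17 with an interval of -0.12 to 0.46, or 0.05 without saline 12 h animal 25. For probe 11864 the F test gave an adjusted p of 0.958.

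**Figure D2:**
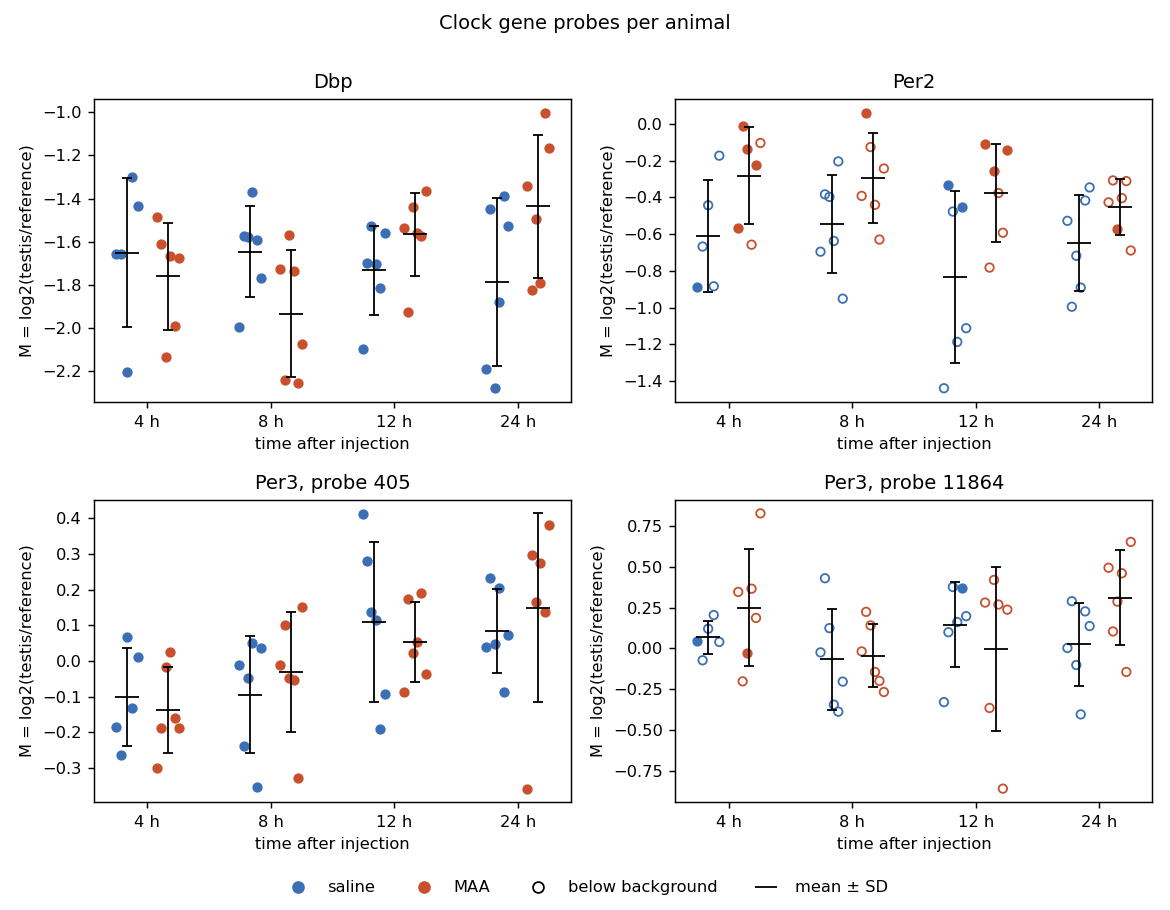
M, the log2 ratio of testis over reference, of each animal for the 4 probes by time after injection in hours, with saline in blue, MAA in red, open circles below background and bars at the mean ± SD. In each panel the saline and MAA groups overlap at all 4 times, and the lowest mean of Dbp is that of MAA at 8 h, at -1.93.

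MAA was then compared with saline at each time in 1 limma model over all probes. No probe of the 3 genes passed an adjusted p of 0.05 at any time. At 4 h this was 0 of 4 against 0.0195% of all probes, and at 8 h 0 of 4 against 0.00976%. At 12 h it was 0 of 4 against 2.54%, and at 24 h 0 of 4 against 2.99%. At an unadjusted p under 0.05, limma gave 0 member probes at 4 h, 1 at 8 h (Dbp), 1 at 12 h (Per2) and 0 at 24 h. The shares of all probes at that level were 7.4%, 7.11%, 14.7% and 14.3%.

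Of the 8 groups, the treated animals of 8 h had the lowest mean and median of Dbp, although the lowest single animal was a saline animal of 24 h. At 8 h M was -2.26 at the lowest, -1.91 at the median and -1.57 at the highest in MAA (n = 6), and -1.99, -1.59 and -1.37 in saline (n = 6). Of the 6 treated animals 3 lay below the lowest saline animal and 1 above the saline median, and the groups overlapped. The date-adjusted difference was -0.45 ± 0.15 (SE), a ratio of 0.730 with a 95% interval of 0.593 to 0.899, at an unadjusted p of 0.0041 and an adjusted p of 0.422 (limma). On the 2 dates that held both treatments the difference was -0.48 and -0.33, with 2 animals a side.

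That value leans on how dates and channels are handled. Without the date term the 8 h difference of Dbp was -0.29, and in the testis channel alone it was -0.23 (limma, adjusted p = 0.781 and 0.742). Median centring in place of loess gave -0.55, and the series table as labelled gave -0.14. In the reference channel, which holds the same RNA on every array, Dbp differed by 0.18 between the 8 h groups, at an unadjusted p of 0.042 and an adjusted p of 0.781 (limma). This channel enters M as the divisor, and its part in the difference was not tested beyond these values. Leaving out 1 animal at a time, MAA 8 h animal 15 among them, moved the difference between -0.57 and -0.37.

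At the other times the differences of Dbp were smaller. At 4 h the treated animals had M of -2.14, -1.67 and -1.48 at the lowest, median and highest (n = 6), inside the range of the 5 saline animals given above. The difference was -0.18 with an interval of -0.49 to 0.13 (limma, adjusted p = 0.859), and within dates -0.21 and -0.47. Leaving out 1 animal moved it to -0.34 (saline animal 6) or -0.09 (MAA animal 11). At 12 h the lowest, median and highest were -1.92, -1.55 and -1.37 in MAA and -2.09, -1.70 and -1.53 in saline. Here 2 of 6 treated animals lay above the highest saline animal, yet the date-adjusted difference was -0.02 with an interval of -0.34 to 0.29 (limma, adjusted p = 0.968). The plain means differed the other way, by 0.17, the 2 dates gave -0.07 and 0.32, and without animal 27 the fit gave 0.01.

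At 24 h the medians of Dbp stood in the opposite order, also without passing the test. The lowest, median and highest M were -1.82, -1.42 and -1.004 in MAA and -2.28, -1.70 and -1.39 in saline. Of the treated animals, 3 of 6 lay above the highest saline animal, and the groups overlapped. The difference was 0.21 with an interval of -0.09 to 0.50 (limma, adjusted p = 0.580), and within dates 0.20 and 0.37. Centring the arrays on the median in place of loess gave -0.05, and no date term gave 0.35. Without saline animal 41 it was 0.09, and without saline animal 38 it was 0.33.

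Whether the Dbp effect itself differed between times was tested directly. Of the pairwise differences between times, 24 h against 8 h was the largest, and the others lay between -0.27 and 0.43. The effect at 24 h exceeded that at 8 h by 0.66 ± 0.20 (SE), with an interval of 0.26 to 1.06. The unadjusted p was 0.0020 and the adjusted p 0.359 (limma). The pairwise differences were not run under the alternatives. With the series table as labelled the Dbp effect was -0.14 at 8 h and -0.22 at 24 h, and with median centring -0.55 and -0.05. The F test over the 4 effects gave an unadjusted p of 0.0153 and an adjusted p of 0.319, in a test that called 0.127% of all probes. The corresponding adjusted p was 0.848 for Per2, 0.884 for Per3 probe 405 and 0.868 for probe 11864. The mean Dbp effect over the 4 times was -0.11 with an interval of -0.29 to 0.06 (limma, adjusted p = 0.595). Without the date term that mean was 0.03.

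Per2, a period gene that outside signals can induce in many tissues, lay close to the limit of detection. Its median M was higher in treated than in saline animals at 4 and 12 h. At 8 and 24 h the medians stood in the same order, but 0 saline arrays were above the limit, so no direction is read from them. Of the differences at the 4 times 0 passed the test in limma (1 at an unadjusted p under 0.05). At 4 h the treated animals had M of -0.66, -0.18 and -0.01 at the lowest, median and highest (n = 6), and 3 of 6 lay above the highest of the 5 saline animals. The difference was 0.35 ± 0.18 (SE) with an interval of -0.03 to 0.72 (limma, adjusted p = 0.71), and the 2 dates gave 0.71 and 0.37. Without saline animal 6 it was 0.54, and without saline animal 9 it was 0.23. Above background were 4 of 6 treated and 1 of 5 saline arrays.

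At 12 h the lowest, median and highest M of Per2 were -0.78, -0.32 and -0.11 in MAA and -1.44, -0.79 and -0.33 in saline (n = 6 each). Again 3 of 6 treated animals lay above the highest saline animal, 6 of 6 lay above the saline median, and the groups overlapped. The difference was 0.47 ± 0.19 (SE), a fold of 1.38 with an interval of 1.06 to 1.80, at an unadjusted p of 0.0185 and an adjusted p of 0.211 (limma). Without animal 27 it was 0.39 (adjusted p = 0.336), and without animal 28 it was 0.65 (adjusted p = 0.0683). On the date with 2 animals a side it was -0.12, and on the other, with 1 treated animal, 0.64. Above background were 3 of 6 treated and 2 of 6 saline arrays.

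At 8 and 24 h Per2 has values but no difference that can be read as a change. At 8 h the lowest, median and highest M were -0.63, -0.32 and 0.06 in MAA and -0.95, -0.52 and -0.20 in saline, with 1 treated and 0 saline arrays above background (limma, adjusted p = 0.858). At 24 h they were -0.69, -0.41 and -0.31 in MAA and -0.996, -0.62 and -0.35 in saline, with 1 and 0 arrays above background (adjusted p = 0.856). At both times 2 of 6 treated animals lay above the highest saline animal.

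The effect on Per2 averaged over the 4 times was the member result nearest to a call, and it depends on the model. It was 0.29 ± 0.10 (SE) with an interval of 0.08 to 0.49, at an unadjusted p of 0.0090 and an adjusted p of 0.128 (limma), in a contrast that called 4.02% of all probes. Here 0 of 4 member probes were called, and 1 had an unadjusted p under 0.05 against 15.2% of all probes. Without the date term the mean effect was 0.31 (adjusted p = 0.0137), with the date as a random block 0.31 (adjusted p = 0.0161), and without MAA 12 h animal 28 it was 0.35 (adjusted p = 0.0402). In the testis channel alone it was 0.23 (adjusted p = 0.110). The mean includes the 8 and 24 h groups, whose saline arrays were all under the background limit.

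For Per3, a period gene that the clock can run without in mice, probe 405 gave date-adjusted differences between 0.02 and 0.17. At 4 h the treated animals had M of -0.30, -0.17 and 0.02 at the lowest, median and highest, and at 8 h -0.33, -0.03 and 0.15 against -0.35, -0.03 and 0.05 in saline. At 12 h the values were -0.09, 0.04 and 0.19 in MAA against -0.19, 0.13 and 0.41 in saline, and at 24 h -0.36, 0.22 and 0.38 against -0.09, 0.06 and 0.23. Groups overlapped at all 4 times, and at 24 h 3 of 6 treated animals lay above the highest saline animal and 1 below the lowest.

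The date-adjusted differences of probe 405 were 0.02 at 4 h (interval -0.22 to 0.25), 0.16 at 8 h (-0.07 to 0.38), 0.02 at 12 h (-0.22 to 0.26) and 0.17 at 24 h (-0.05 to 0.40). Their adjusted p-values in limma were 0.989, 0.828, 0.970 and 0.520. The sign at 12 h turned to -0.06 without the date term, to -0.07 with median centring and to -0.0028 without animal 27. Without MAA animal 24 the 8 h difference was 0.10, without MAA animal 23 it was 0.24, and without MAA animal 44 the 24 h difference was 0.11. The mean over times was 0.09 with an interval of -0.04 to 0.22 (adjusted p = 0.555). Over the 4 times the intervals reach from -0.22 to 0.40 on the log2 scale.

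Probe 11864 was compared at 4 h, the only time at which both groups had an array above background. Its difference there was 0.11 with an interval of -0.25 to 0.47 (limma, adjusted p = 0.947). At 8, 12 and 24 h the adjusted p-values were 0.977, 0.781 and 0.772. The M values of the Per3 probes correlated at r = -0.13 over 47 arrays, given as a description. With the date means removed r was -0.18.

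**Figure D3:**
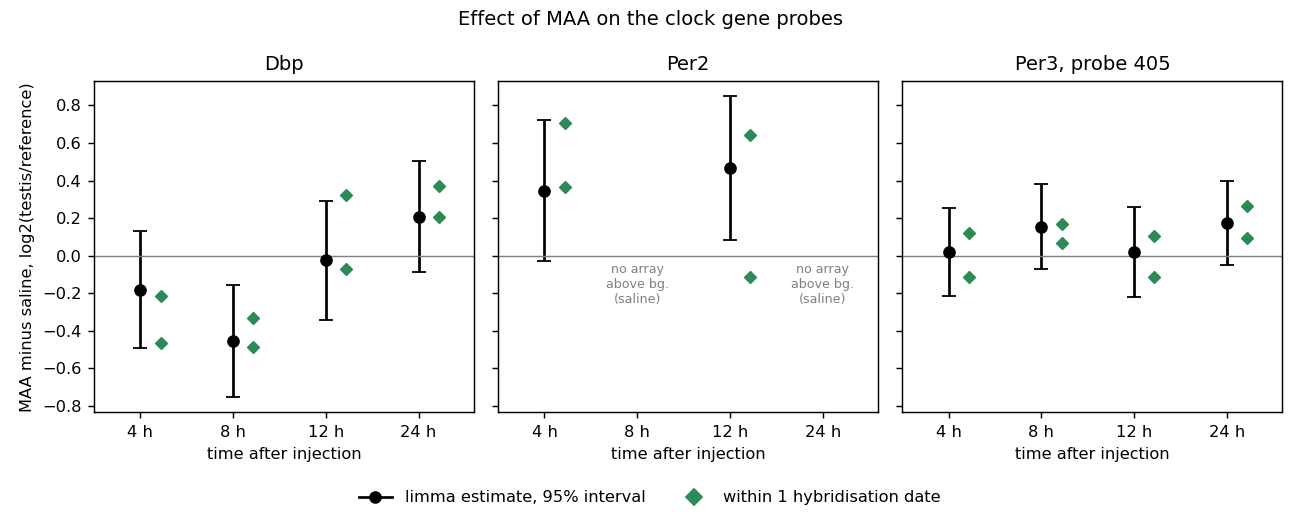
Difference of M between MAA and saline (log2) by time after injection in hours for Dbp, Per2 and Per3 probe 405, with black points and bars for the limma estimate and its 95% interval and green diamonds for single hybridisation dates. The interval of Dbp at 8 h runs from -0.75 to -0.15 and that of Per2 at 12 h from 0.08 to 0.85, while all intervals of Per3 include 0; Per2 is not drawn at 8 and 24 h.

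The weight of the hybridisation date differed between the probes. The share of the variance within groups that lay between dates was 39.8% for Dbp, 24.0% for Per2, 32.8% for Per3 probe 405 and 34.5% for probe 11864. The dates take 28.2% of the degrees of freedom within groups, so the share of Per2 was below that and the share of Dbp above it. With the date in the fit the SD of an animal fell from 0.28 to 0.23 for Dbp and stood at 0.29 without and 0.30 with it for Per2. For Dbp the date means ran from -0.37 to 0.34 around the group means, a span wider than any MAA difference of this gene. On 8 of 12 dates both treatments were hybridised.

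Correlations between the members across animals are given as a description. Over the 47 arrays, which share the reference RNA and the array design, Pearson's r of M was 0.05 between Dbp and Per2, -0.07 between Dbp and Per3 probe 405, and -0.26 between Per2 and Per3 probe 405. With date means removed these were -0.22, -0.08 and -0.06. Over the 23 saline arrays alone, with date means removed, r was -0.45 between Per2 and probe 405 and 0.01 between Dbp and probe 405. In the testis channel alone, over the 47 arrays and with date means kept, r was -0.29 between Dbp and probe 405.

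The genes whose M was most like that of each member over the 47 arrays, with date means removed, are given as a description. For Dbp, of 6792 genes, the highest r were 0.61 with Gak, a kinase of clathrin uncoating, and 0.59 with Epha2, an ephrin receptor. Trmt10c, Pck1 and Acp2 followed at 0.57, 0.56 and 0.55, and the lowest were -0.64 with Tmem218, -0.64 with Asb3 and -0.61 with Casp9. In the testis channel alone, with date means kept, the r of Gak was 0.16 and that of Pck1, the gluconeogenic enzyme, -0.02.

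For Per2 the highest r were 0.66 with Pmvk, an enzyme of the mevalonate pathway, and 0.59 with Tfam, a mitochondrial transcription factor. In the testis channel alone, which is part of M, and with date means kept, they were 0.60 and 0.61. Over the 23 saline arrays they were 0.59 and 0.50. Per2 itself stood above background on only 12 of the 47 arrays. Kctd1, Lmod2 and Gabarapl2 followed at 0.56, 0.55 and 0.54, but at 0.46, 0.12 and 0.15 in the testis channel alone. The lowest were -0.62 with Them7, -0.55 with Agk and -0.55 with E4f1. For Per3 probe 405 they were 0.63 with Cstf1, 0.62 with Zfyve1, 0.60 with Pgap2, 0.59 with Prlh and 0.58 with Orc4, and at the low end -0.61 with Cldn10, -0.58 with Itfg1 and -0.56 with Fcho2. Cstf1, a factor of 3′ end cleavage, had r of 0.79 over the saline arrays but 0.03 in the testis channel alone. None of these 24 genes belongs to the clock list.

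The rest of the clock was read with the members from a list of activators, repressors, D-box factors, E-box repressors, nuclear receptors, kinases and outputs. Of it 21 genes were measured, 18 beside the members, and 9 of these 18 were above background on fewer than 24 of the 47 arrays. No gene of the list was called at any time or in either direction, 0 of 21 at 4, 8, 12 and 24 h (limma). At an unadjusted p under 0.05 there were 0, 2, 1 and 1 of 21. At 8 h these were the member Dbp and Timeless, at 12 h the member Per2, and at 24 h Csnk2a1. Over all probes the shares called were 0.0195%, 0.00976%, 2.54% and 2.99%, and those at an unadjusted p under 0.05 were 7.4%, 7.11%, 14.7% and 14.3%. The median difference of the list was -0.08, 0.02, 0.10 and 0.08 at the 4 times, beside 0.01, 0.01, 0.04 and 0.02 over all probes. In the 6 comparisons between saline times 0 of 21 were called (limma), where over all probes 0% to 0.00488% were called. At an unadjusted p under 0.05, 0 of 21 stood beside 8.4% of all probes for 8 against 4 h, 1 beside 7.14% for 12 against 4 h and 1 beside 6.92% for 24 against 4 h. For 12 against 8 h it was 1 beside 6.73%, for 24 against 8 h 0 beside 5.77%, and for 24 against 12 h 0 beside 4.65%.

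Among the activators, Npas2, a partner of BMAL1 that can stand in for CLOCK, had its smallest adjusted p at 8 h. Its difference there was -0.31 ± 0.16 (SE, adjusted p = 0.716, limma), beside -0.45 for Dbp, and 2 dimmer probes of the gene gave -0.19 and -0.13. Bmal1 was above background on 5 of 47 arrays. At 4 h its difference was -0.30 ± 0.17 (SE, adjusted p = 0.725), and at 8 h no saline array stood above background.

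Timeless, related to a fly clock gene and in mammals a replication fork factor, was above background on 12 of 47 arrays. At 4 h it differed by 0.46 ± 0.25 (SE, adjusted p = 0.727, limma), and at 8 h 3 treated and 0 saline arrays were above background (adjusted p = 0.598). Rorb, a nuclear receptor of the ROR group, had 1 treated and 0 saline arrays above background at 12 h (adjusted p = 0.474). Bhlhe40, an E-box repressor, differed by 0.27 ± 0.19 at 24 h (SE, adjusted p = 0.580).

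Of the kinases that mark clock proteins for turnover, Csnk2a1, the catalytic subunit of casein kinase 2, came nearest to a call at 24 h. Its M was -0.38 ± 0.24 in MAA and -0.89 ± 0.41 in saline (SD, n = 6 each), and the difference was 0.48 ± 0.17 (SE, adjusted p = 0.122, limma). A second Csnk2a1 probe, above background on 21 of 47 arrays, gave -0.07 at 24 h (adjusted p = 0.936) and had its largest differences at 4 and 8 h, 0.60 and 0.48, where the first gave 0.22 and -0.05. Csnk2b, the regulatory subunit of the same kinase, differed by -0.28 ± 0.15 at 4 h (SE, adjusted p = 0.716). Gsk3b, a kinase of many substrates, differed by 0.23 ± 0.13 at 12 h and 0.17 ± 0.13 at 24 h (SE, adjusted p = 0.451 and 0.595), and by 0.20 at 12 h without animal 27. Csnk1e, a casein kinase of the PER proteins, differed by -0.28 ± 0.18 at 12 h (SE, adjusted p = 0.497), and by -0.22 without animal 27.

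Between the saline groups the smallest adjusted p of the clock list was that of Tef, a D-box factor of the same family as Dbp. Its saline M was -0.75 ± 0.28 at 4 h (SD, n = 5), -0.77 ± 0.30 at 8 h, -1.21 ± 0.21 at 12 h and -0.71 ± 0.43 at 24 h (SD, n = 6 each). The 12 h group was lowest on this probe. A second Tef probe, above background on 11 of 47 arrays, gave -0.08 for 12 against 8 h, where the first gave -0.52. The F test of the first gave an unadjusted p of 0.0179 and an adjusted p of 0.611 (limma). Wee1, a cell cycle kinase under clock control in liver, had an adjusted p of 0.816, and Csnk1e one of 0.844.

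**Figure D4:**
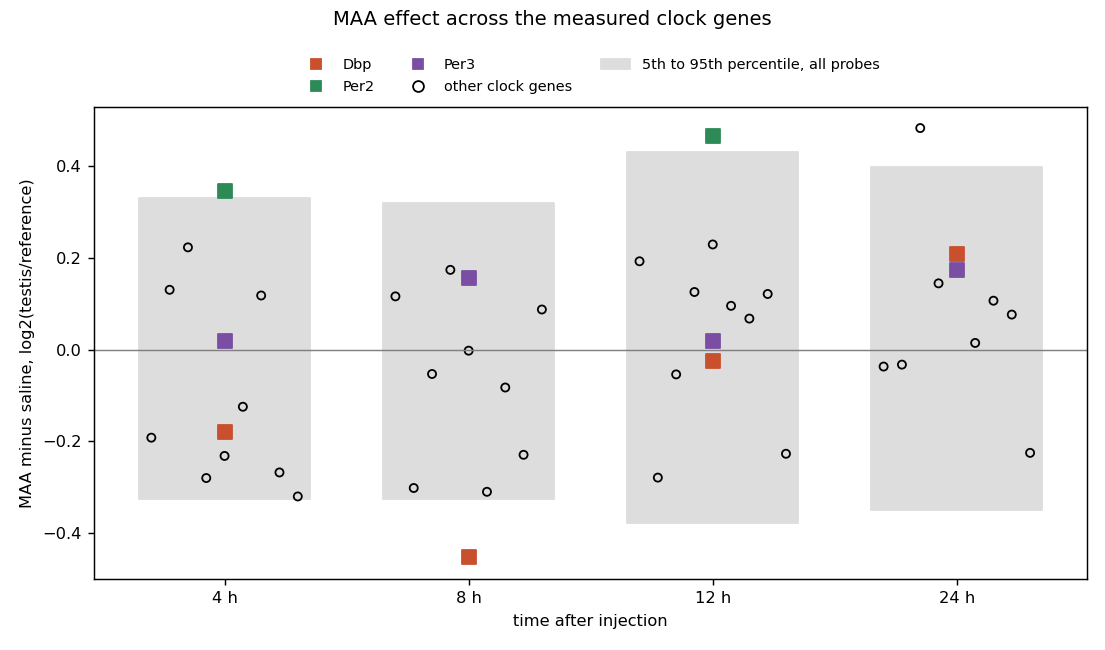
Difference of M between MAA and saline (log2) by time after injection in hours for Dbp, Per2 and Per3 probe 405 (squares) and the 9 other clock genes above background on at least 24 of the 47 arrays (open circles), over a grey band from the 5th to the 95th percentile of all probes. Dbp at 8 h (-0.45), Per2 at 4 and 12 h (0.35 and 0.47) and Csnk2a1 at 24 h (0.48) lie outside the band, and Per2 is not drawn at 8 and 24 h.

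In whole testis RNA, fewer cells of a type and less RNA per cell cannot be told apart, and transcripts of 1 germ cell class were lower in the treated testes. Of 4 spermatocyte markers measured, 3 fell at 12 h (Sycp1, Sycp2 and Sycp3, parts of the synaptonemal complex, named after their values were seen), with a median of -0.64 over the list. Without animal 27 these 3 were also called, with a median of -0.68. In the fit of all arrays 2.54% of all probes were called at 12 h. At 8 h, the time of the largest Dbp difference, 0 of 4 were called in limma, with a median of -0.15 and 0 of 4 at an unadjusted p under 0.05. Over all probes the shares at 8 h were 0.00976% and 7.11%, so a count of 0 among 4 markers says little. Markers of other cell types were called higher at 12 h without animal 27. They were 2 of 5 spermatogonial, 1 of 4 elongating spermatid, 1 of 6 Sertoli and 2 of 2 myoid markers. None of these lists held a marker called lower, and the round spermatid, Leydig, macrophage and endothelial lists held none called. Of the markers called higher, the spermatogonial Etv5 was not called in the fit of all arrays. Its adjusted p was 0.056 there and 0.049 without animal 27 (limma). The part of these shifts in the Per2 values at 12 h was not tested, nor that of cell numbers in the Dbp values at 8 h.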

How the data were processed

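Testis RNA of 47 rats was measured on 2-colour Agilent arrays. The raw columns are spot intensities per the file headers, with no background column, and the processed intensities had been normalized by the authors. The ratio column is a log2 ratio that the authors normalized within each array, and base and direction were read from the values. No label or header says how they were normalized. The deposited series table of log2 ratios served only as an alternative, since 39 of its 47 columns equal another array's ratio column and 7 their own (tolerance 1e-06). The files do not settle which names are right, so the groups of all arrays rest on the names of the single files.

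Raw intensities of the 20500 probes with processed values were normalized by loess within each array. This gave M = log2(testis/reference), with Cy3 as testis, against the labels. On each array M correlated with the deposited ratio at r of 0.984 or more. All arrays entered 1 linear model per probe (limma 3.58.1, R 4.3.3), with 8 groups and 12 hybridisation dates as fixed terms (28 residual and 6.75 prior degrees of freedom), and a call means a p under 0.05 after Benjamini-Hochberg adjustment over all probes of a contrast. P-values are two-sided. "Above background" is the deposited flag, a limit on the Cy3 column on 47 of 47 arrays. The number of arrays limits the precision. The script was tested on simulated data.

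The members, the gene lists and the rules were chosen with earlier results of these data known. Named besides every member probe are, of the clock list, the 3 other genes with the smallest adjusted p at each time and in the saline F test, and for likeness the 5 genes of highest and 3 of lowest correlation among genes above background on at least 24 of the 47 arrays. A gene of several probes is given by its brightest, Per3 by both. Gene names come from the platform's annotation and a RefSeq table of GRCr8. Alternatives were median centring, each channel alone, the deposited ratio, the processed channels, a filter on dim probes, no date term, the date as a random block, array weights, the series table, only the groups compared, the mean of both Per3 probes, and leaving out each animal. Background correction by normexp was not run, since no background intensities are in the files used here.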

Additional observations from a re-analysis of the deposited data

Results flagged for a closer look

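In 32 groups of 5 or 6 animals (4 probes in 8 groups), 2 held an animal that stood far from the others by Dixon's gap ratio, a number that chance alone gives at about 1 group in 20. MAA 12 h animal 28 had a Dbp M of -1.92, while the nearest of the other 5 animals had -1.57. Without it the 12 h difference of Dbp was 0.06 in place of -0.02. MAA 24 h animal 39 had an M of -0.36 at Per3 probe 405, while the nearest other animal had 0.14. Without it the 24 h difference of Per3 was 0.24 in place of 0.17.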

How the results depend on the processing

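No member probe was called at any of the 4 times under any alternative run. Of 1808 alternative values of the member results, 3 passed the threshold, all of the mean Per2 effect (0.29 in the report): 0.31 without the date term, 0.31 with the date as a random block (correlation 0.0686) and 0.35 without MAA 12 h animal 28, the highest value when animals were left out 1 at a time (lowest 0.25). Signs turned for differences near 0 and, in the testis channel, with median centring and with the series table, also for larger ones. Without the date term they were -0.0370 for Per3 probe 405 at 4 h, 0.166 for Dbp at 12 h, -0.0569 for Per3 at 12 h and 0.0295 for the mean of Dbp. With the date as a random block they were -0.0273, 0.138, -0.0505 and 0.00791. At 12 h Per3 was -0.0319 with the deposited ratio, -0.00684 with the processed channels, -0.0715 with median centring and -0.0672 as the mean of both probes. With only the 2 groups compared it was -0.0242, and Dbp was 0.0863. Dbp at 24 h was -0.0475 with median centring. In the testis channel alone the saline differences were -0.147 for Per3 (12 against 8 h) and 0.0600 for Dbp (24 against 8 h). With the series table as labelled they were 0.00465 for Dbp and 0.0778 for Per2 (12 against 8 h), and the MAA differences were 0.0560 for Dbp at 4 h, -0.0684 for Per2 at 12 h, -0.0451 for Per3 at 12 h, -0.217 for Dbp at 24 h and -0.160 for Per3 at 24 h. The cause of these turns was not tested. Leaving out single animals moved Dbp at 12 h between -0.17 and 0.0634, Per3 at 4 h between -0.0255 and 0.0609 and Per3 at 12 h between -0.0325 and 0.0644.

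Counts over all probes moved more. At 4, 8, 12 and 24 h the reported 4, 2, 520 and 612 calls became 14, 1, 153 and 193 with median centring, 17, 32, 461 and 1075 in the testis channel alone, and 13, 10, 883 and 977 among probes above background on at least 24 of the 47 arrays. With the series table they were 0 at each time, and with only the 2 groups compared 0, 0, 0 and 16. The filter on dim probes removed Per2 and probe 11864, so it gives no value for them, and their signal at the background limit bounds what these arrays can show. No paired analysis was possible because animal numbers do not recur between groups.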

Other observations

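Glucocorticoid signalling, which induces Per genes in several tissues, was read from a list of 14 genes that includes Per1. None was called at 4, 8 or 24 h in limma, with 0, 2 and 3 at an unadjusted p under 0.05, where all probes had 0.0195%, 0.00976% and 2.99% called and 7.4%, 7.11% and 14.3% at the unadjusted level. At 12 h 1 was higher, Nfkbia, the inhibitor of NF-kappa-B, by 0.64 ± 0.15 (SE, adjusted p = 0.019), or 0.70 without animal 27, against 2.54% of all probes called. In the mean over the 4 times 3 were higher: Nfkbia by 0.34, Fkbp5, a chaperone of steroid receptors, by 0.33, and Errfi1, a feedback inhibitor of the EGF receptor, by 0.32 (adjusted p = 0.014, 0.011 and 0.016), against 4.02% of all probes. These genes were named after their values were seen. Per1 itself, above background on 47 of 47 arrays, differed by 0.05 ± 0.06 in that mean (SE, adjusted p = 0.738). The other genes of the list were not called in that mean without animal 27. They were 0.22 for Ddit4, 0.18 for Cdkn1a, 0.11 for Zbtb16, 0.04 for Mt1 and 0.02 for Mt2A. Tsc22d3 was at 0.02, Sgk1 at 0.01, Klf9 at -0.04, Cebpd at -0.04 and Dusp1 at -0.10.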
